A study of Mus musculus with 20 samples.

Results

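The genes described here are 9 genes of the circadian clock, namely Per1, Per2, Per3, Dbp, Tef, Nr1d1, Nr1d2, Bhlhe41 and Clock, out of 18193 genes with a symbol of their own on the chip. They were chosen by name, and each was read from its probe set of the highest mean over all arrays. Together they have 24 probe sets of the 45037 in the table. The study asked which hippocampal transcripts go with age, with memory in old age and with the loss of 11β-HSD1, the enzyme that regenerates active glucocorticoid inside cells. RNA from the hippocampus of 20 male mice was hybridised to 1 Affymetrix Mouse Genome 430 2.0 chip per mouse. Values are normalised chip intensities, and differences are given on the log2 scale.

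Each group held 4 mice. WT_Y were wild-type C57BL/6J mice of 6 months. WT_AU and WT_AI were wild-type mice of 24 months whose spatial memory in the Y-maze was unimpaired or impaired, and WT_A joins both (n = 8). KO_Y and KO_A were Hsd11b1-/- mice of 6 and 24 months, congenic on C57BL/6J, in which the gene was disrupted in all tissues and throughout life. All groups had been through the Y-maze before they were killed. The methods place the culls in the morning soon after lights on. The time for each mouse is not given in the sources used here, so that differences in time of collection cannot be told apart from other differences between mice. Mice carry the name of their group followed by their own number.

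The clock is a feedback loop of transcription. CLOCK and its partner BMAL1, the product of Arntl, switch on genes through the E-box, and the PER and CRY proteins that result shut this activity off. NR1D1 and NR1D2 repress Arntl, BHLHE41 represses at E-boxes, and DBP and TEF carry the rhythm to further genes through the D-box. Clocks run in most tissues, the hippocampus included, and Per1 is also induced by glucocorticoids and by neuronal activity.

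The promoters of the genes were searched for the elements of that loop. RefSeq start sites on GRCm38.p6 gave 12 windows of 300 bases (250 before the start and 50 after it) for 8 of the 9 genes. Both strands were searched for the E-box CACGTG, the variant CACGTT or AACGTG, the D-box TTATGTAA, TTACATAA or TTACGTAA, the cyclic AMP element TGACGTCA and the nuclear receptor element AGGTCA. The variant differs from the E-box by a letter, and no window was counted for both at the same letters. Stretches around the matches are shown because the loop is known to act through these elements, which stand in capitals.
Per1 (chr11:69098771-69098800, plus strand): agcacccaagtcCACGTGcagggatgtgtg
Bhlhe41 (chr6:145865556-145865585, minus strand): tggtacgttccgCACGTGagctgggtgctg
Tef (chr15:81802534-81802563, plus strand): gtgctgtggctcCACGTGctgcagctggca
Nr1d1 (chr11:98775388-98775417, minus strand): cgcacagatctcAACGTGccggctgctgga
Per3 (chr4:151044853-151044882, minus strand): ccgacccgcgcgTTATGTAAggtactcggg
Per3 (chr4:151044806-151044835, minus strand): acccgcccgcggTTATGTAAcccccgccgt
The E-box began 166 bases before the start site in Per1, 153 before it in Bhlhe41, and 127 and 138 before the 2 starts of Tef. Per3 held 2 D-boxes, 205 and 158 bases before its start. An E-box stood in 4 of the 12 windows (3 of 8 genes) and in 7.15% of all 32851 promoter windows. A D-box stood in 1 of the 12 (1 of 8 genes) and in 1.06% of all windows. The variant stood in 1 of the 12, that of Nr1d1, and in 4.68% of all. The cyclic AMP element, in 1.79% of all windows, was in 0 of the 12.

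Dbp and Nr1d2, whose values turn up most often in the results, are shown by 100 bases before their starts. That of Dbp begins 250 bases before the start and has none of the searched letters. That of Nr1d2 ends at the start and holds the nuclear receptor element. This element stood in 3 of the 12 windows (Clock, Nr1d2 and Per1, 3 of 8 genes) and in 16.3% of all windows.
Dbp (chr7:45704997-45705096, plus strand): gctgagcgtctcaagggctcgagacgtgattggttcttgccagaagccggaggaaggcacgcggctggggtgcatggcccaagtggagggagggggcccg
Nr1d2 (chr14:18239107-18239206, minus strand): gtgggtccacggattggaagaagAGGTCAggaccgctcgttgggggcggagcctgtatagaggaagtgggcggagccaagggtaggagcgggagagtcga

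Of 12 markers of hippocampal neurones, 11 passed the filter on low values. Genes of the pituitary and liver were also present in some mice. The log2 mean of the 5 tested was 9.49 in WT_Y-369 and 8.75 in WT_Y-374, and 5.05 to 7.82 in the other mice, with Alb up to 2911.9 and Gh up to 1843.9. Mouse WT_Y-374 also had the lowest mean of the hippocampal neurone markers (8.76, against 8.89 to 9.42 in the others). Hsd11b1 read 549.6 to 804.2 in the wild-type mice and 39.5 to 65.2 in the Hsd11b1-/- mice. Markers of the choroid plexus, which lies against the hippocampus, varied widely inside every group. The log2 mean of their 13 tested genes was 5.12 in the lowest mouse, KO_Y-580, and 9.19 in the highest, WT_Y-374. In bulk tissue, fewer cells of a type and less RNA per cell cannot be told apart.

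Of the 9 genes, 7 passed the filter, which asked for an intensity of 100 or more in 2 or more arrays and kept 16995 probe sets. Nr1d1 read 44.9 to 66.2 and Bhlhe41 26.4 to 34.7, against array medians of 39.4 to 41.3, and neither was tested with limma. The other 7 genes were at 100 or more in all 20 mice.

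None of the 7 genes was called in any of the 9 comparisons or in the test of any difference among the 5 groups (limma, Benjamini-Hochberg adjusted p under 0.05). The share of all probe sets that were called was 0.594% for WT_A and 2.41% for KO_A against young mice of the same genotype, 0.141% in WT_AI against WT_Y and 0.43% in WT_AU against WT_Y. It was 0.129% for KO_Y against WT_Y, 0.0294% for KO_A against WT_A, 0% for WT_AI against WT_AU and 0.0118% for WT_AI against KO_A. It was 0.0471% for the interaction, in which the age effect of wild-type mice is taken from that of Hsd11b1-/- mice, and 1.03% for any difference among the groups. The shares that involve KO_A depended on mouse KO_A-41. Without it, the share was 15.5% in KO_A against KO_Y, 8.31% in KO_A against WT_A, 2.94% in WT_AI against KO_A, 2.47% for the interaction and 4.37% for any difference among the groups, and none of the 7 genes was called. Array weights, which gave low weight to WT_Y-374, KO_A-41 and KO_A-42, raised the first 3 of these to 21.8%, 12.8% and 6.73%. None of the 7 genes was called in these 3 comparisons with weights, while Dbp was called for any difference among the groups. The share of all probe sets called in that test with weights is not given here, so the Dbp call cannot be set against it. At an unadjusted p under 0.05, with all mice and no weights, there were 3 differences, 1 of Per3 and 2 of Nr1d2. That of Per3 was in KO_Y against WT_Y, those of Nr1d2 in KO_A against WT_A and in WT_AI against KO_A. Of the 16995 probe sets tested, 630, 2520 and 1813 had such a p in these comparisons, in that order. Such a p was thus more common in the comparisons of Nr1d2 than in that of Per3. Each of the 3 differences is described with its gene.

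**Figure D1:**
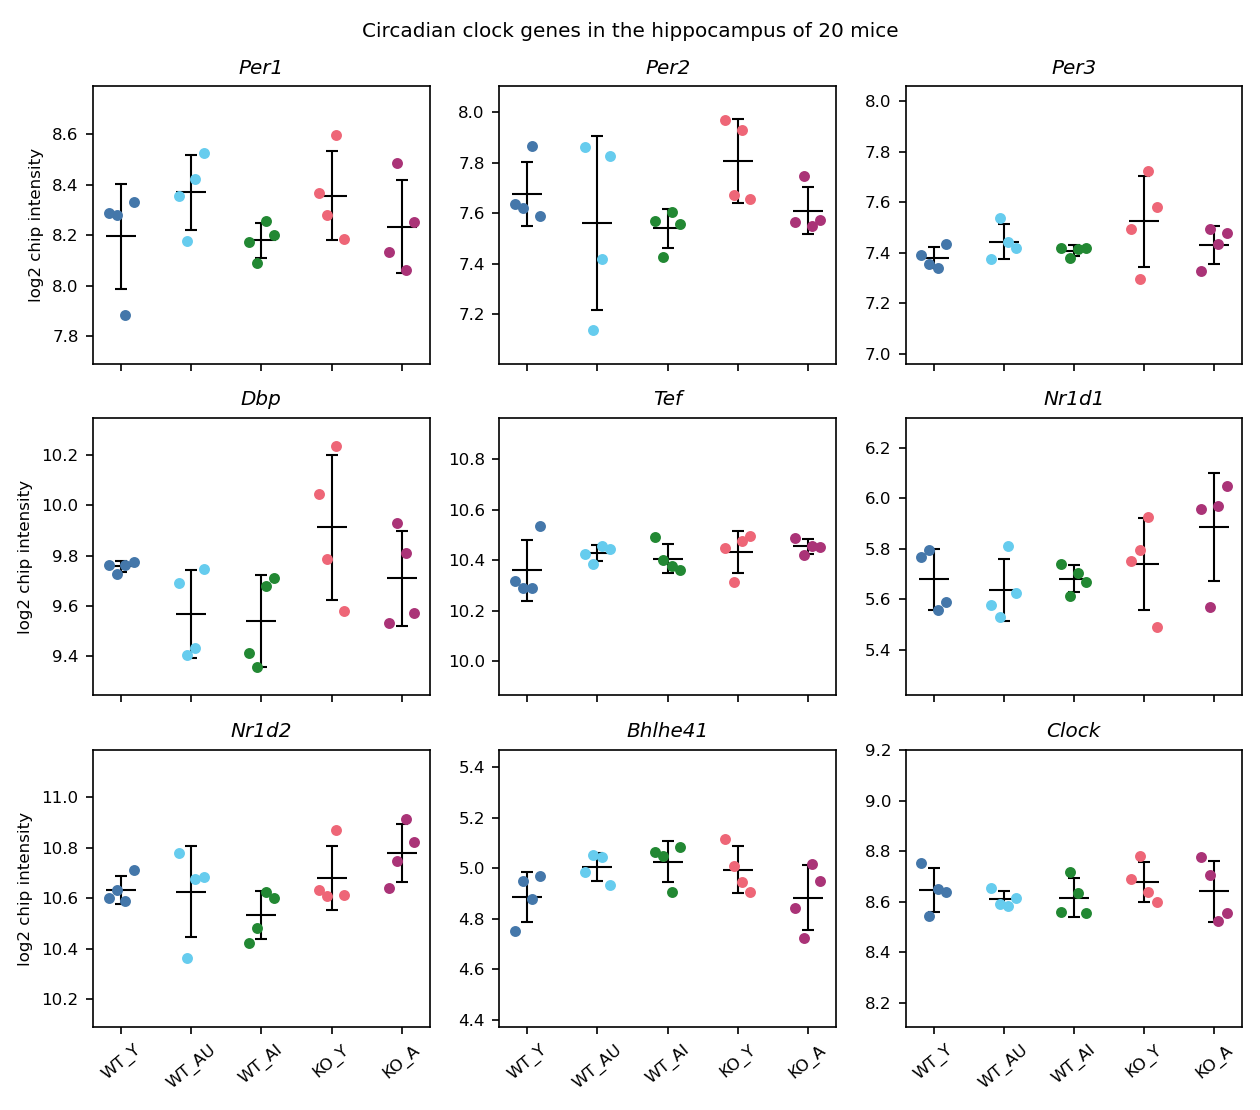
Log2 chip intensity of the 9 clock genes in the 5 groups. Points are mice (4 in each group), horizontal lines are group means, bars are ± 1 SD, and the panels have their own vertical ranges of equal height. The KO_Y mice spread most widely for Dbp, and Nr1d1 and Bhlhe41 lie below the filter.

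Per1, a repressor of the loop, read 312.2, 310.7, 236.3 and 322.1 in WT_Y, 327.3, 289.1, 343.2 and 368.4 in WT_AU, and 288.2, 272.1, 305.6 and 294.3 in WT_AI. It read 329.8, 311.1, 387.4 and 290.9 in KO_Y, and 281.1, 358.1, 267.5 and 305.2 in KO_A. The groups overlapped throughout. Group means were 8.20 ± 0.21 in WT_Y, 8.37 ± 0.15 in WT_AU, 8.18 ± 0.07 in WT_AI, 8.36 ± 0.18 in KO_Y and 8.23 ± 0.18 in KO_A (log2, SD, n = 4). Ordered by level, the groups run WT_AI, WT_Y, KO_A, KO_Y and WT_AU, and each differs from the next by less than the SD of at least 1 of the pair. Mouse WT_Y-373 lay below all others and mouse KO_Y-580 above all others.

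Per2, the second repressor of the family, had its lowest and its highest mice in different groups. It read 199.2, 196.7, 233.5 and 192.6 in WT_Y, 233.0, 141.0, 171.2 and 226.9 in WT_AU, and 190.2, 172.1, 194.7 and 188.6 in WT_AI. It read 250.7, 204.2, 244.2 and 201.7 in KO_Y, and 189.4, 215.3, 187.7 and 190.6 in KO_A. The WT_AU mice fell apart into a pair at 233.0 and 226.9 and a pair lower down, with an SD of 0.35 on the log2 scale against 0.08 to 0.17 in the other groups. Means ran from 7.54 in WT_AI to 7.81 in KO_Y. A further probe set of Per2, with a mean of 99.3 over all mice, followed the first with r = 0.59 across mice after group means were subtracted.

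Per3, the third member of the family, read 167.7, 163.6, 162.1 and 172.8 in WT_Y and 180.0, 157.1, 211.6 and 191.6 in KO_Y. Of the 4 KO_Y mice, 3 lay above every WT_Y mouse and 1, KO_Y-578, below every WT_Y mouse. KO_Y exceeded WT_Y by 0.14 (SE 0.07, unadjusted p = 0.0496, adjusted p = 0.9998 by limma), which does not pass the correction. Without mouse KO_Y-580 the difference was 0.08. The aged groups were close, with 166.1 to 185.7 in WT_AU, 166.2 to 171.3 in WT_AI and 160.5 to 180.3 in KO_A. The other 5 probe sets of Per3 did not pass the filter.

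Dbp, the D-box activator whose transcript swings widely over the day in most tissues, read within a narrow range in WT_Y, at 867.8, 848.1, 868.7 and 876.2. It read 826.0, 678.8, 690.6 and 859.5 in WT_AU and 681.7, 656.0, 819.4 and 838.9 in WT_AI. All WT_AI mice lay below all WT_Y mice, and in WT_AU 3 of 4 did. Groups that do not overlap were found for 3.52% of all probe sets in WT_AI against WT_Y. The log2 means were 9.76 ± 0.02 in WT_Y (SD, n = 4) and 9.56 ± 0.17 in WT_A (n = 8), a difference of -0.20 with an exact permutation p of 0.00808 (two-sided; the smallest possible is 0.00202). The exact p for WT_AI alone, 0.0286, is the smallest that 4 against 4 can give. By limma, which takes 1 spread for all groups, Dbp was not called in WT_A (adjusted p = 0.782). In the same comparison 0 of 5 pituitary and liver markers were positive (median -1.54) and 0 of 13 of the choroid plexus (median -1.11), while 12 of 13 leptomeningeal (median 0.43) and 10 of 10 microglia markers (median 0.60) were. Their part in the Dbp difference was not tested. The fit with choroid plexus and leptomeningeal means as covariates did not call Dbp. As Dbp was not called without them either, this says nothing about their part. The Dbp differences given here were singled out after their values were seen.

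In the Hsd11b1-/- mice Dbp read 1056.2, 883.1, 1203.9 and 766.5 in KO_Y and 740.7, 973.3, 896.2 and 761.4 in KO_A. KO_Y held both the highest mouse of all, KO_Y-580, and a mouse below every WT_Y mouse, KO_Y-585. The log2 SD was 0.29 in KO_Y and 0.02 in WT_Y, with 4 mice each. KO_A differed from KO_Y by -0.20 and the groups overlapped (adjusted p = 0.362 by limma). This value rested on single mice, with -0.09 without KO_Y-580 and -0.31 without KO_Y-585. A further probe set of Dbp, with a mean of 295.5, followed the first closely across mice (r = 0.89).

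Tef, a relative of Dbp with the same binding element, read 1253.4 to 1487.3 over all mice. Its group means lay between 10.36 in WT_Y and 10.46 in KO_A, and 3 of 4 WT_Y mice (1277.2, 1253.8 and 1253.4) were lower than all mice of WT_AU, WT_AI and KO_A, while the other, WT_Y-374 at 1487.3, was the highest of all 20. Clock, the activator of the loop, read 368.1 to 439.8, with group means from 8.61 to 8.68 in log2. Further probe sets of Clock, with means of 340.3 and 338.3, followed the first with r = 0.20 and 0.77 across mice after group means were subtracted. The values of Clock given here thus depend on the probe set read. No 2 groups stood apart from each other for Tef or for Clock.

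Nr1d2, a repressor of Arntl, read 1554.5, 1588.8, 1539.3 and 1675.8 in WT_Y and 1585.4, 1561.3, 1872.9 and 1565.7 in KO_Y. In the aged groups it read 1756.1, 1318.6, 1634.9 and 1644.0 in WT_AU, 1373.4, 1429.7, 1576.8 and 1552.1 in WT_AI, and 1595.7, 1721.4, 1926.5 and 1809.1 in KO_A. All KO_A mice lay above all WT_AI mice, and the WT_AU mice overlapped both. WT_AI was lower than KO_A by a log2 difference of -0.25 (SE 0.08, unadjusted p = 0.00817, adjusted p = 0.444 by limma), with an exact permutation p of 0.0286, the smallest possible. Groups did not overlap for 3.56% of all probe sets in this comparison. KO_A exceeded WT_A by 0.20 (SE 0.07, 95% interval 0.05 to 0.35, adjusted p = 0.244 by limma), with 4 of 4 KO_A mice above the mean of WT_A. Neither difference passes the correction, and both comparisons share the KO_A and WT_AI mice. The mean of 13 leptomeningeal markers was 6.90 to 8.02 in KO_A and 7.47 to 8.47 in WT_A, and that of 12 astrocyte markers 10.3 to 10.8 and 10.3 to 10.5. With the choroid plexus and leptomeningeal means as covariates, the Nr1d2 differences were -0.31 and 0.26, still without a call. As Nr1d2 was not called without these covariates either, this says nothing about their part. The astrocyte markers were not in that fit, and their part was not tested.

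Nr1d1, its relative, read 46.2 to 56.1 in WT_A and 47.5 to 66.2 in KO_A, and Bhlhe41 read 26.9 to 31.3 in WT_Y and 30.0 to 33.9 in WT_A. The exact permutation p was 0.0404 for Nr1d1 between KO_A and WT_A and 0.0323 for Bhlhe41 between WT_A and WT_Y. At these intensities both genes are close to the array medians. Of 72 exact tests over the 9 genes and 8 comparisons, 6 gave a p under 0.05. The share of all probe sets with such a p is not given here. The 6 include Dbp in WT_A and in WT_AI against WT_Y, and Nr1d2 in KO_A against WT_A and in WT_AI against KO_A. These comparisons share mice, so that the 6 are not separate observations.

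The comparison of young genotypes was the one in which all 7 tested genes had a positive difference, from 0.03 for Clock to 0.16 for Per1. Their median was 0.13, while the median over all probe sets tested was -0.003 and 48.3% of them were positive. Several of the genes (Per1, Per2, Dbp and Nr1d2) had positive correlations between mice, so that 7 of 7 is not 7 separate observations. The count was 6 of 7 without mouse KO_Y-580, without KO_Y-578 or without WT_Y-371. The median was 0.06 without KO_Y-580 or without WT_Y-373 and 0.08 without KO_Y-575. These figures without single mice were chosen after seeing the data. Markers of hippocampal neurones had the same sign in this comparison, with 10 of 11 positive and a median of 0.10. All 5 pituitary and liver markers (median -0.60) and all 13 choroid plexus markers (median -1.26) were negative. The choroid plexus mean ran from 6.25 to 9.19 in WT_Y and from 5.12 to 8.42 in KO_Y. Mouse KO_Y-580, high in most clock genes, had the lowest of all. The part of the neurone, pituitary and liver markers in the shift was not tested. After group means were subtracted, the choroid plexus and leptomeningeal means had correlations of -0.36 to 0.21 with the 9 clock genes over all mice. Of these, 0 of 18 had an unadjusted p under 0.05 by permutation. Such correlations leave out the differences between groups, so they do not test the part of either mean in the shift.

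In KO_A against KO_Y, which shares the KO_Y mice, 2 genes were positive (Tef and Nr1d2) and 5 negative, with a median of -0.09 against 0.02 over all probe sets. The median was -0.15 without KO_Y-578 and -0.04 without KO_Y-580. In this comparison 0 of 11 hippocampal neurone markers were positive (median -0.25), while 10 of 10 microglia (median 0.64), 12 of 12 astrocyte (median 0.24), 9 of 9 oligodendrocyte (median 0.13) and 13 of 13 choroid plexus markers were, and their part in the shift was not tested. In WT_A against WT_Y, 3 were positive and 4 negative, from -0.20 for Dbp to 0.08 for Per1, with a median of -0.03. The interaction of age and genotype was not called for any of the 7.

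Between WT_AI and WT_AU, which asks whether the genes go with memory in old age, 1 of 7 was positive, with a median of -0.03, where 45.7% of all probe sets were positive. The sign count was 0 without WT_AU-23, WT_AU-26 or WT_AI-49, 2 without WT_AI-14 or WT_AI-21 and 3 without WT_AU-126 or WT_AU-57. The median was -0.08 without WT_AU-23, -0.07 without WT_AU-26 and -0.02 without WT_AU-57. Per1 had the widest difference, with 1 of 4 WT_AU mice inside the range of WT_AI and 3 above all WT_AI mice but none of this passing the test (adjusted p = 1.0 by limma). Of 21 tested genes regulated by neuronal activity, 1 was positive in this comparison (median -0.26). Of 17 tested genes induced by glucocorticoids, 0 were positive (median -0.13), and of 11 hippocampal neurone markers 6 were (median 0.01). The part of these lists in the Per1 difference was not tested. In WT_AI against KO_A all 7 were negative, with a median of -0.06, where 38.9% of all probe sets were positive and their median was -0.03. Without KO_A-41 or without KO_A-42, 1 was positive. The median was -0.02 without KO_A-42, equal to that over all probe sets without this mouse, and -0.09 without KO_A-41 or KO_A-222. All 12 astrocyte (median -0.18), 13 choroid plexus and 10 microglia markers were negative in this comparison as well. The other way went 13 of 13 leptomeningeal (median 0.58) and 9 of 11 hippocampal neurone markers (median 0.10), which were positive. The part of these markers in the shift was not tested. The figures without single mice for these pairs and for the rhythmic outputs given further on were also chosen after seeing the data.

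**Figure D2:**
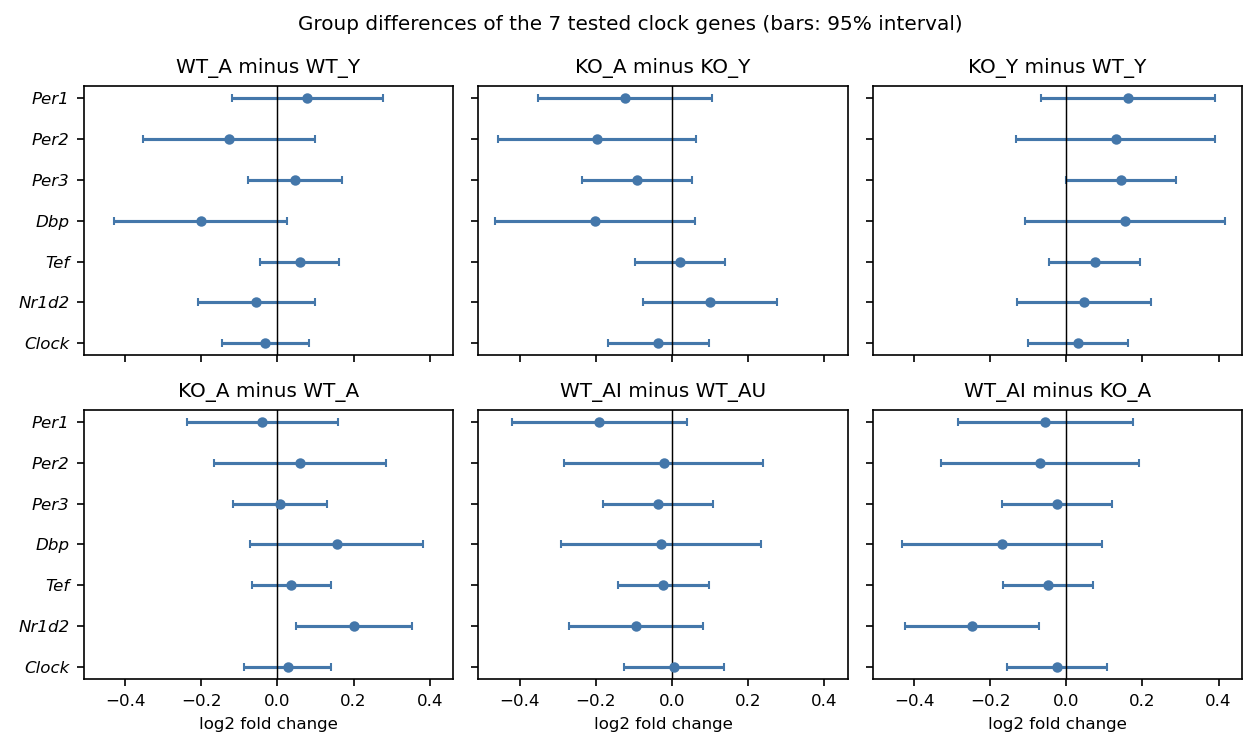
Log2 differences between group means for the 7 tested clock genes in 6 comparisons. Points are limma estimates and bars their 95% intervals. In the panel of KO_Y minus WT_Y all 7 points lie right of 0, and the intervals of Nr1d2 leave out 0 in both panels that set KO_A against wild-type aged mice.

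The methods' second test, rank products, sets every mouse of a group against every mouse of the other and ranks the probe sets. The authors took a p under 0.05 by this test as their rule for differential expression. The null of rank products comes here from values permuted within chips and not from permuted mice, so its p is not comparable with the exact p. The widest log2 difference between groups for the 7 genes was -0.25, that of Nr1d2 in WT_AI against KO_A. At p under 0.05 it called Per1, Per2, Per3 and Dbp as higher in KO_Y than in WT_Y (4 of 7, with 9.78% of all probe sets called in either direction). Dbp was called as lower in WT_A, in WT_AI and in WT_AU against WT_Y, with 11.6%, 10.2% and 10.9% of all called, and in WT_AU Per1 was called as higher. In KO_A against KO_Y, Dbp and Per2 were called as lower (15.7% of all called). Per1 was called as lower in WT_AI than in WT_AU (7.83%), and Nr1d2 as lower in WT_AI than in KO_A (12.6%). In KO_A against WT_A 0 of 7 were called (13.8%), where limma called 0 as well and 1 of the 7, Nr1d2, had an unadjusted p under 0.05.

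Mice of the same group differed most in Dbp, Per2 and Per1. The SD between mice of a group, pooled over groups, was 0.19 for Dbp, 0.19 for Per2 and 0.16 for Per1 on the log2 scale. It was 0.12 for Nr1d2, 0.09 for Per3, 0.08 for Clock and 0.07 for Tef. Over all probe sets tested the median was 0.12, with quartiles of 0.09 and 0.16. Dbp varied more than 91.0% of the 1000 probe sets of the most similar mean, Per2 more than 88.4% and Per1 more than 82.7%, while Clock exceeded 24.3%, Per3 22.6% and Tef 21.5% of theirs.

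The deviations ran in common for several genes. Mouse KO_Y-580 was the highest of its group in Per1, Per3, Dbp and Nr1d2, with 0.32 above the group mean in Dbp and 0.24 in Per1. Mouse WT_AU-23 was the lowest of its group in Per1, Per2, Dbp, Tef and Nr1d2, with -0.42 in Per2 and -0.26 in Nr1d2. Mouse KO_A-42 was the highest in Per1, Per2, Per3 and Dbp, and mouse WT_AI-21 the lowest in the same 4 genes. Not all values followed this. Mouse WT_Y-373 had Per1 0.31 below its group mean and Per2 0.19 above it. Mouse WT_Y-374 was the highest of its group in Per1, Per3, Dbp, Tef and Nr1d2 and the lowest in Per2. Mouse WT_AU-23 was the highest of its group in Per3. Mouse KO_A-222 was the highest in Nr1d2 and the lowest in Per1, Per2 and Clock.

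**Figure D3:**
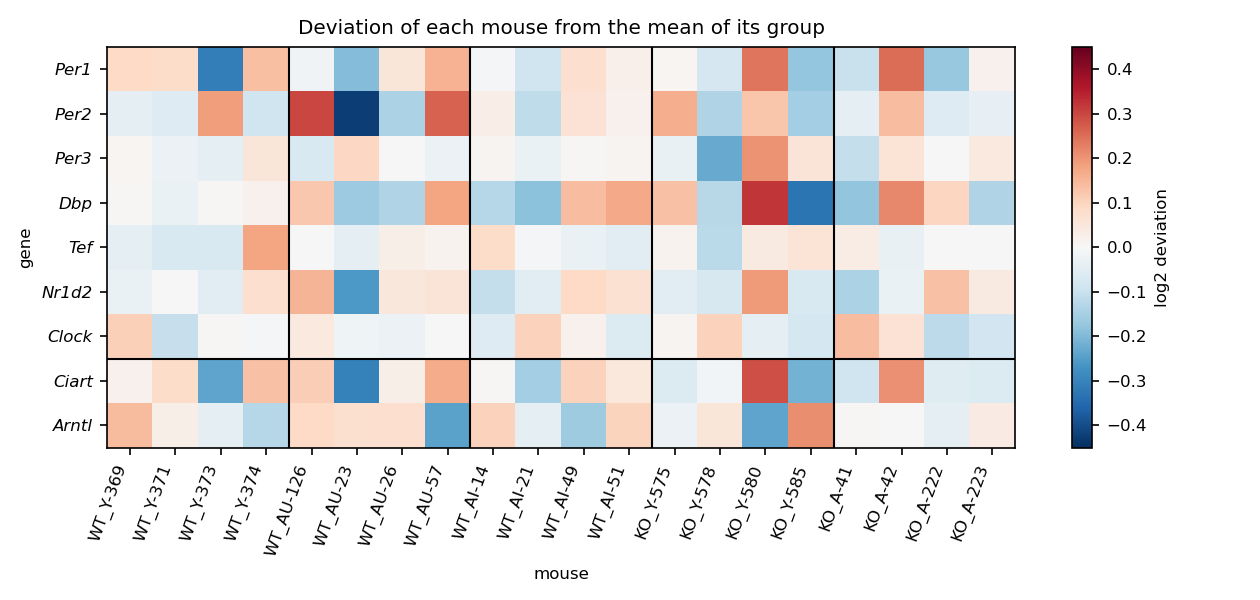
Deviation of each mouse from the mean of its group on the log2 scale, red above and blue below, for the 7 tested clock genes and for Ciart and Arntl below the line. Columns are the 20 mice, with lines between groups. Mouse KO_Y-580 is red in Per1, Per2, Per3, Dbp, Nr1d2 and Ciart and blue in Arntl, and mouse WT_AU-23 is blue in Per1, Per2, Dbp, Nr1d2 and Ciart.

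Correlations between mice were computed after group means were subtracted, for 45 pairs of the 9 genes and Arntl, with permutations within groups. Of these, 6 had an unadjusted p under 0.05 and 0 an adjusted one. Dbp went with Per2 (r = 0.68, rho = 0.72, p = 0.00208, adjusted p = 0.0936 by permutation, n = 20), and r was 0.72 without the 2 mice farthest out in Per2. It also went with Nr1d2 (r = 0.65, rho = 0.69, adjusted p = 0.14 by permutation; r = 0.58 without the 2 farthest) and with Per1 (r = 0.59, rho = 0.63, adjusted p = 0.14 by permutation; r = 0.65 without the 2 farthest). Per1 and Nr1d2 had r = 0.48 and rho = 0.52 (adjusted p = 0.374 by permutation), with r = 0.59 without the 2 farthest.

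Arntl, whose product partners CLOCK and whose transcript runs against those of Per and Dbp in a working clock, had a negative r with Dbp (r = -0.60, rho = -0.46, adjusted p = 0.261 by permutation). Without mice KO_Y-580 and KO_Y-585 it was -0.36, so that this relation rests largely on them. With Per1, Per2 and Nr1d2 the r of Arntl was -0.41, -0.40 and -0.45. Clock and Per3 had r = -0.48 and rho = -0.47 (adjusted p = 0.374 by permutation; -0.41 without the 2 farthest).

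Ciart, a repressor of CLOCK and BMAL1, was the gene most like Per1 of all those tested. Likeness was taken as r across the 20 mice after subtraction of group means, as a description over mice that share chips and normalisation. For Per1 and Ciart it was 0.91 (rho = 0.88), 0.89 without the 2 mice farthest out and 0.88 to 0.93 with any mouse left out. Ciart was the third most like Dbp (r = 0.73), after Trmt11 (0.83), a tRNA methyltransferase gene, and Tob2 (0.79), an antiproliferative gene. With Nr1d2 its r was 0.70, with Per2 0.54, with Per3 0.21, with Tef 0.19 and with Clock 0.01. Without the 2 mice farthest out these were 0.47 for Nr1d2, 0.34 for Per2 and -0.09 for Per3, and with a single mouse out the lowest r was 0.55 for Nr1d2, 0.30 for Per2 and -0.17 for Per3. Its own intensities were low, from 70.3 to 126.7. The genes that ran most against Dbp were Hic1, a transcriptional repressor (-0.77), and Npy, the neuropeptide Y gene (-0.74).

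After Ciart, the genes most like Per1 were Crhr1, a receptor of corticotropin-releasing hormone (0.82), and Kmt2b, a histone methyltransferase (0.81), and Nudt5 ran most against it (-0.76). For Per2 the highest was Nap1l1, a histone chaperone (0.84), and the lowest Dcp1b, of mRNA decapping (-0.77). For Nr1d2 the highest was Tubgcp3, of the gamma-tubulin complex (0.90), and the lowest Klf10, a transcription factor (-0.78). Per3, Tef and Clock were most like Tubgcp2 (0.81), Cog1 (0.87) and Letm1 (0.88). The 9 genes themselves were left out of this ranking, and no other clock gene was among the 5 genes most like Per2, Per3, Tef, Nr1d2 or Clock.

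Per1 also went with the mean of 21 activity-regulated genes such as Egr1, Egr3 and Nr4a3 (r = 0.78, rho = 0.73, p = 0.00233, adjusted p = 0.0839 by permutation over 36 pairs, n = 20), with r = 0.63 without the 2 mice farthest out in Per1. With the mean of 17 glucocorticoid-induced genes such as Mt1, Mt2 and Klf9 the r was 0.64 for Per1 (rho = 0.64, adjusted p = 0.127 by permutation), 0.66 for Dbp (rho = 0.62, adjusted p = 0.177 by permutation) and 0.56 for Nr1d2 (rho = 0.57, adjusted p = 0.192 by permutation). Without the 2 mice farthest out in each they were 0.64, 0.47 and 0.49. Dusp1 is in both lists. The activity-regulated mean had r = 0.32 with Dbp, 0.10 with Per2 and 0.07 with Per3. None of these passes the correction.

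**Figure D4:**
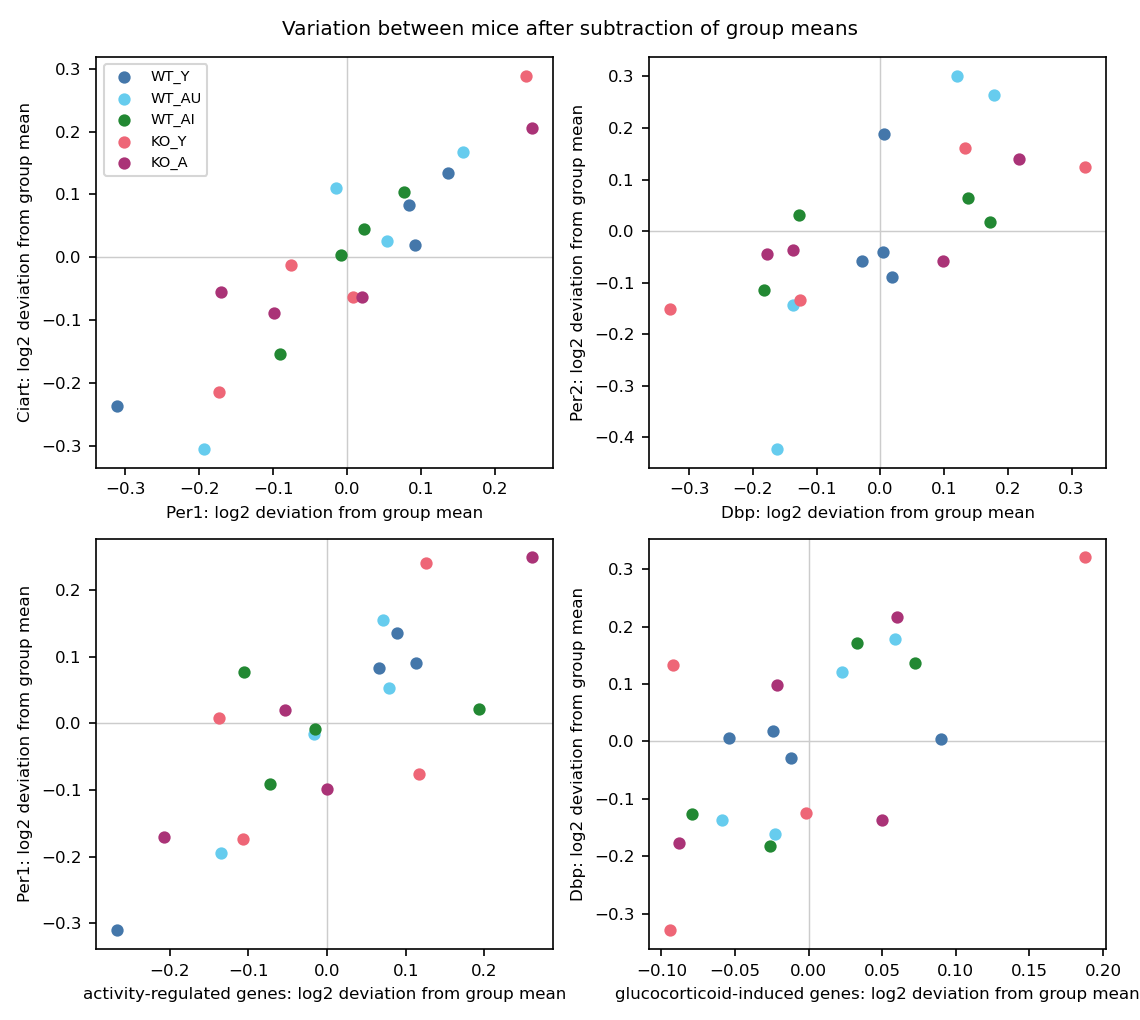
Deviations from group means on the log2 scale, 1 point per mouse, coloured by group. The panels set Per1 against Ciart (r = 0.91), Dbp against Per2 (r = 0.68), the mean of the activity-regulated genes against Per1 (r = 0.78) and the mean of the glucocorticoid-induced genes against Dbp (r = 0.66). Mouse KO_Y-580 is the KO_Y point at the top right of the panel of Per1 and Ciart.

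Other genes of the clock were not called either. Of a list of 19 other core clock genes, 14 were tested and 0 were called in any comparison. Ciart read 70.3 to 90.8 in WT_Y and 89.4 to 126.7 in KO_Y, a difference of 0.32 (SE 0.11, unadjusted p = 0.0103, adjusted p = 0.9998 by limma). It read 78.8 to 96.6 in KO_A, a difference of -0.31 from KO_Y (adjusted p = 0.141 by limma). Cry1, a repressor with the PER proteins, had the opposite signs, with -0.22 in KO_Y against WT_Y and 0.21 in KO_A against KO_Y (adjusted p = 0.9998 and 0.193 by limma). Rora and Rorb, activators of Arntl, had differences of 0.35 and 0.29 between KO_A and WT_A (adjusted p = 0.249 and 0.244 by limma). The medians of the 14 genes lay between -0.05 and 0.02 in the comparisons.

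Of 13 genes known as rhythmic outputs, 12 were tested and 2 were called in KO_A against KO_Y. Tspan4, a tetraspanin gene, rose by 0.34 (adjusted p = 0.0148 by limma) and was also called for any difference among the 5 groups (adjusted p = 0.0178 by limma), and Hsph1, a heat shock protein gene, fell by a log2 difference of -0.31 (adjusted p = 0.047 by limma). The call of Tspan4 in KO_A against KO_Y was lost without KO_Y-575, KO_Y-580 or KO_A-222 (adjusted p = 0.0543 to 0.0623 by limma), and that of Hsph1 without any of the 8 mice except KO_A-41 (0.0552 to 0.172). Cirbp, the cold-inducible RNA-binding protein gene, had 0.39 (adjusted p = 0.0924 by limma). Of the 12 genes, 6 were positive in this comparison, where 2.41% of all probe sets were called. The mean of the 12 astrocyte markers was 10.2 to 10.5 in KO_Y and 10.3 to 10.8 in KO_A, with all 12 positive, and its part in these differences was not tested.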

How the data were processed

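The authors read the scans with affy under R 2.8.0, as named among the tools in the submitters' notes. All 20 chips were normalised as a set by RMA (robust multichip average), which equalises the distributions and so hides a change shared by all transcripts. The deposited values are intensities on the linear scale and were turned to log2 here. The number of chips sets the precision. Probe sets that reached 100 in 2 or more arrays (16995 of 45037, 37.7%) went into a limma fit (version 3.58.1, R 4.3.3) with 5 group means and 1 spread, with p adjusted by Benjamini-Hochberg over all of them.

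Exact permutation tests were two-sided, with a smallest p of 0.0286 for 4 mice against 4. Correlations used log2 values minus group means and 1e+05 two-sided permutations within groups (20000 in the alternatives). Rank products used 50 permutations. Scripts were tested on simulated data. Fold changes were named at an unadjusted limma p under 0.05, and every called gene of the other clock and rhythmic lists was named, with further genes chosen by name. Likeness was ranked over genes with a single symbol other than the 9 members, and the 5 highest and 5 lowest were taken for Dbp and Per1. Rora, Rorb, Cirbp and the genes most like other members were named after their values were seen. The members and the lists were chosen with earlier results of these data known. Promoter sequences came from RefSeq (GRCm38.p6), and that of Per2 was not used here. Alternatives were other filters, fits of the compared groups alone, array weights, centring, another prior, other probe sets, marker covariates, rank products and leaving out each mouse. Python 3.11.15 was used for tables and plots, with numpy 2.4.6, pandas 2.3.3, scipy 1.17.1 and matplotlib 3.10.9.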

Additional observations from a re-analysis of the deposited data

Results flagged for a closer look

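Over the 9 genes and 5 groups, 45 sets of 4 mice were examined for a mouse far from the other 3, and 5 had one, where chance gives about 1 in 20. Per1 read 236.3 in mouse WT_Y-373 and 310.7 to 322.1 in the rest of its group. Per2 read 215.3 in mouse KO_A-42 and 187.7 to 190.6 in the rest. Per3 read 166.2 in mouse WT_AI-21 and 170.5 to 171.3 in the rest, a small gap in a narrow group. Tef read 1487.3 in mouse WT_Y-374 and 1253.4 to 1277.2 in the rest. Nr1d2 read 1872.9 in mouse KO_Y-580 and 1561.3 to 1585.4 in the rest. The 5 values came from 5 different mice. Mean choroid plexus marker levels of these mice were 8.78, 8.17, 8.49, 9.19 and 5.12 on the log2 scale, and their part in the values was not tested. Mouse WT_Y-374 stood apart in other ways too, with the lowest hippocampal neurone mean (8.76), a pituitary and liver mean of 8.75 and the lowest array weight (0.252).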

How the results depend on the processing

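Of 208 recomputed counts of called clock genes, 200 were 0 like the reported ones. By rank products 1 gene was called in WT_A, 2 in KO_A, 1 in WT_AI and 2 in WT_AU against young mice, 4 in KO_Y against WT_Y, 1 in WT_AI against WT_AU and 1 in WT_AI against KO_A. With array weights, Dbp was called for any difference among the groups (1 gene). Without weights 1.03% of all probe sets were called in that test, and the share with weights is not given here. The cause of these differences between settings was not tested. Leaving out any mouse gave 0 calls of the clock genes, also without KO_A-41, where calls over all probe sets rose from 410 to 2628 (15.5%) in KO_A against KO_Y and from 5 to 1413 (8.31%) in KO_A against WT_A. The differences ranged from 0.08 to 0.22 for Per3 in young mice, from 0.10 to 0.26 for Nr1d2 between KO_A and WT_A, and from -0.31 to -0.13 for Nr1d2 between WT_AI and KO_A. With the probe set of the next highest mean, r turned to 0.39 for Per3 with Clock, to -0.13 for Dbp with Nr1d2 and to -0.27 for Nr1d2 with the glucocorticoid-induced genes. The next probe sets read 53.3 to 73.9 for Per3 and 16.0 to 22.3 for Nr1d2, below the filter. That of Clock, also used in the pair with Per3, read 300.9 to 408.1 and passed the filter, with r = 0.20 to the first probe set of Clock. For Dbp with the glucocorticoid-induced genes it gave r = 0.81 (adjusted p = 0.0042 by permutation). Without mouse KO_A-222 the adjusted permutation p was 0.0292 for Per1 with Dbp (r = 0.68) and for Per2 with Dbp (r = 0.71), and with centred arrays it was 0.0495 for the latter. For Per1 with the activity-regulated genes it was 0.0378, 0.018 and 0.0468 without WT_AI-49, KO_Y-575 or KO_Y-578. No paired analysis was possible because the groups share no mouse numbers. A gene that was not called is not shown to be unchanged with 4 mice in a group.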
